A study of Ovis aries with 40 samples.

Results

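Collagens are the main structural proteins of the matrix that surrounds the cells of the lung. The collagen genes described here were all genes of the count files whose identifier is COL, a number, A and a number, which gave 42 of 24478 annotated genes. RNA was measured by sequencing in proximal and distal lung of American Romney sheep, either wild type (WT) or carrying a disruption of CFTR, the chloride channel mutated in cystic fibrosis (CFTR-/-, called CF). Each genotype was sampled at gestational days 65, 80, 100 and 120 and at term (day 147), with 2 libraries per genotype, region and time, or 40 libraries in all. The CF animals were made by somatic cell nuclear transfer from 1 male fibroblast line targeted in exon 2, so they are clones of 1 nuclear donor, whereas the WT animals came from natural breeding and the WT term animals were born naturally. No other allele or treatment was given for either genotype. The cloning and the CFTR genotype cannot be told apart in these data.

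Each collagen molecule is a triple helix of chains, and the genes fall into classes by what the chains assemble into. Fibrillar collagens (types I, III, V, XXIV and XXVII) form the tensile fibres of the interstitium and of airway and vessel walls. Type II is the fibrillar collagen of cartilage, where it assembles with types IX and XI, and type X is the collagen of hypertrophic cartilage. Type IV chains form the sheet of the basement membrane, with COL4A1 and COL4A2 present in nearly all of them and COL4A3, COL4A4 and COL4A5 forming the network of the mature alveolar and glomerular membranes. Type VI forms beaded filaments, type VIII hexagonal networks, FACIT collagens decorate fibrils, types XV and XVIII (multiplexins) lie at the edge of basement membranes, type VII anchors epithelium and types XIII, XVII, XXIII and XXV span the plasma membrane. In the developing lung, airway cartilage, vessel walls and the thinning air-blood barrier each use different members.

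The 42 members were 8 fibrillar, 6 cartilage, 5 basement membrane, 5 beaded filament, 2 network, 7 FACIT, 2 multiplexin, 1 anchoring, 4 transmembrane and 2 other collagen genes. COL4A2 and COL9A1 are listed only as LOC101115805 and LOC101102992 and so are not members. Where their values are given, they are named as such. Paired genes lie together in the Oar_v4.0 genome: COL4A4 and COL4A3 stand head to head on chromosome 2 with 8014 bases between them (COL4A4 at 228280498 to 228419711, COL4A3 at 228427726 to 228585952), and COL4A5 and COL4A6 stand head to head on chromosome X. COL2A1 lies on chromosome 3 at 138202874 to 138233138. Counts were summed over all exons of a gene, so they do not separate exons, untranslated regions or isoforms. Exons shared with a neighbouring gene covered at most 5.10% of any member's exon length (COL26A1 with IFT22).

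Before term, the 16 WT libraries held 24670355 to 43700012 counts each and the 16 CF libraries 85773994 to 103139483. At term the 4 libraries of each genotype held 115937437 to 126749480 (WT) and 117316905 to 119451372 counts (CF). Depth and genotype therefore cannot be told apart before term. In WT, depth also rose into term without overlap, so depth and term cannot be told apart in the WT time courses. The same limit holds for the CF against WT difference in change. Libraries were thinned to the smallest total only in the comparisons of CF against WT. Values below are CPM, the counts scaled to a common library total, and fold changes are on the log2 scale with their standard error (SE). CFTR was read at 11 to 43.8 CPM in WT and 4.99 to 34.9 CPM in CF libraries before term, and at 9.58 to 14.8 and 3.65 to 5.14 CPM at term; whole-gene counts do not show a small edit in 1 exon. The tissue is labelled as lung epithelial tissue. The epithelial genes EPCAM (90.2 to 286 CPM), CDH1 (66.6 to 450 CPM) and NKX2-1 (61.0 to 209 CPM) were read in all 40 libraries, as were fibroblast, smooth muscle and endothelial genes, so these are mixed tissues in which fewer cells of a type and less RNA per cell cannot be told apart. Both WT day 100 replicates carry 1 animal label, and the label of WT day 65 replicate 2 is also that of CF day 100 replicate 2. The p-values therefore measure the spread between libraries. If the WT day 100 label is right, the WT intervals that start or end at day 100 rest on 1 animal at that time.

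A pair of CF proximal libraries stood apart. In replicate 2 at day 80, COL1A1 reached 8187 CPM against 1742 CPM in replicate 1, COL5A3 42.2 against 1.56 CPM and COL8A1 30.3 against 1.47 CPM. In replicate 2 at day 120, COL2A1 was at 72.1 CPM against 0.984 CPM in replicate 1, and COL5A1 at 10.7 against 311 CPM. The summed level of 4 basal cell genes was 149 and 275 CPM in these libraries, against 22.3 and 8.02 CPM in their partners, and the distal replicate 2 at CF term was also high at 305 CPM. The part of the basal cell genes in the results below was not tested. The main counts of called members that rest on the CF proximal libraries are given with and without this pair. Counts at other limits or by other tests are given with it only. Without the pair, CF proximal lung has 1 library at day 80 and 1 at day 120, which are assumed to vary like the other groups of the fit. With 2 libraries at a time, the values do not show which of them is the unusual one. COL5A1 at day 80 was at 99.2 CPM in replicate 1 and 529 CPM in replicate 2. The CF distal libraries of day 65 also differed, with COL5A1 at 371 and 61.2 CPM and COL1A1 at 4135 and 1777 CPM. These distal libraries were left out only singly.

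Per exon length, the most abundant members were COL3A1, with a median of 902 RPKM (counts scaled by exon length and library total) over 40 libraries, COL1A2 (555 RPKM), COL1A1 (382 RPKM), the basement membrane chain COL4A1 (306 RPKM) and the beaded filament genes COL6A1 (178 RPKM), COL6A2 (134 RPKM) and COL6A3 (121 RPKM). The ranges of COL3A1 (249 to 1612 RPKM), COL1A2 (83.8 to 1516 RPKM) and COL1A1 (106 to 1741 RPKM) overlapped widely over the conditions. Within a library, the RPKM ratio of COL3A1 to COL1A1 was 0.926 in CF proximal day 80 replicate 2 and 1.05 or more in all others. The ratio of COL1A1 to COL1A2 lay on both sides of 1, from 0.564 to 1.67. At the other end, COL22A1, COL10A1, COL20A1 and COL19A1 had medians below 0.1 RPKM. Members together took 1.41 to 1.92% of all counts in WT libraries before term and 0.738 to 1.40% at term, and 1.26 to 3.86% and 0.598 to 1.35% in CF libraries.

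**Figure D1:**
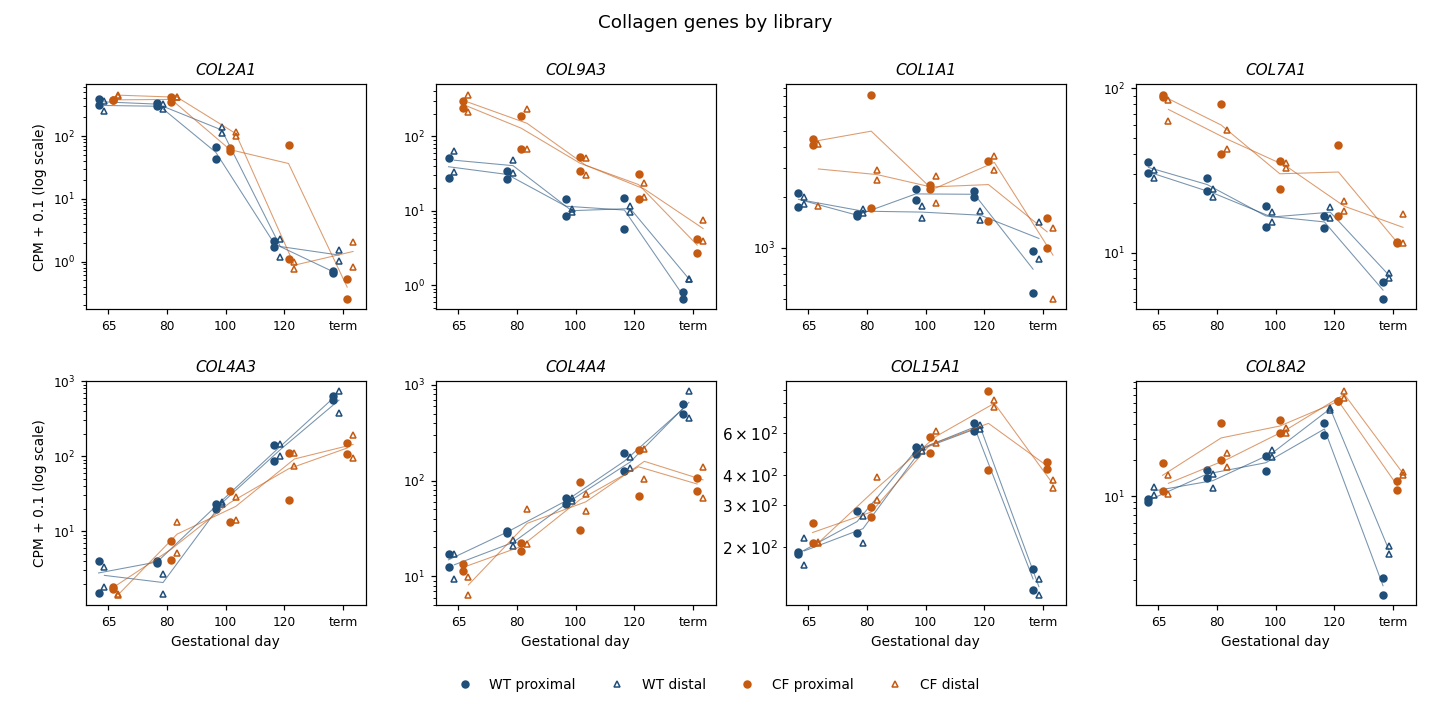
Each panel shows 1 collagen gene in all 40 libraries (CPM + 0.1 on a log axis) by gestational day, for WT (blue) and CF (orange) in proximal (filled circles) and distal lung (open triangles); lines join the means of the 2 libraries. COL2A1 falls from 249 to 459 CPM at day 65 to between 0.154 and 1.98 CPM at term, COL4A3 and COL4A4 climb, and the WT and CF term libraries separate for COL4A3, COL4A4, COL15A1 and COL8A2.

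The first question was how collagen genes change through gestation. A gene was called when its adjusted p was at most 0.05 and its log2 fold change at least 0.58 in either direction, in the quasi-likelihood test of edgeR, with the Benjamini-Hochberg correction made over every gene tested. Between day 65 and term, 8 members were called higher and 20 lower among 40 tested in WT proximal lung, where 20.6% of all genes were called higher and 17.7% lower. In WT distal lung the counts were 7 higher and 19 lower of 41 (all genes, 19.5% and 18%), in CF proximal lung 3 and 10 of 42 (5.78% and 5.83%) and in CF distal lung 5 and 18 of 42 (15.9% and 14.7%). In each course the called members were thus mostly lower at term, whereas over all genes the directions were nearly even. The median change of the tested members was -0.99 (WT proximal), -0.50 (WT distal), -1.15 (CF proximal) and -0.73 (CF distal), beside medians of all genes between -0.08 and 0.02. At the stricter adjusted p of 0.001, 13, 12, 0 and 7 members were called in WT proximal, WT distal, CF proximal and CF distal lung, beside 14.7%, 11.7%, 0.0762% and 4.7% of all genes.

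In all, 8 collagens (COL2A1, COL7A1, COL9A3, COL11A1, COL11A2, COL14A1, COL26A1 and COL27A1) were called lower at term in all 4 courses, and COL4A3, COL4A4 and COL6A5 were called higher in all 4. Over all genes tested in the 4 courses, 4.3% were called lower and 4.73% higher in all of them. Leaving out the pair of CF proximal libraries gave 12 members lower and 4 higher (6.22% and 7.08% of all genes), adding COL1A1, COL1A2, COL5A2 and COL25A1 to those lower and COL23A1 to those higher. COL28A1, a von Willebrand factor domain collagen, was called higher in both WT courses and lower in CF distal lung. The calls of CF proximal lung were the least stable. Without the pair of libraries that stood apart, 28 members (6 higher, 22 lower) were called there, against 22.8% of all genes. With 1 library left out at a time, the count ranged from 2 (without term replicate 2) to 23 (without day 120 replicate 1), and only 1 of the 8 members with the largest changes kept its call in every such refit. All 10 such members kept it in WT proximal lung, 8 of 10 in WT distal and 7 of 10 in CF distal lung.

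COL2A1, the type II chain, had the lowest fitted change of all members tested from day 65 to term in all 4 courses. In WT proximal lung its levels were 313 and 397 CPM at day 65, 341 and 307 CPM at day 80, 43.7 and 66.7 CPM at day 100, 1.59 and 2.04 CPM at day 120 and 0.558 and 0.619 CPM at term. WT distal lung gave 249 and 369 CPM, then 324 and 274, 138 and 113, 1.07 and 2.20, and 1.43 and 0.912 CPM at term. In CF proximal lung they were 383 and 376, 353 and 418, 58 and 63.9, 0.984 and 72.1, and 0.427 and 0.154 CPM. CF distal lung ran through 443 and 459, 420.4 and 417, 102 and 118, 0.883 and 0.668, and 1.98 and 0.713 CPM. Days 65 and 80 did not overlap with day 100 in any course, and day 100 did not overlap with day 120 except for the CF proximal library at 72.1 CPM.

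From day 80 to day 100, COL2A1 fell by 2.57 ± 0.22 (SE) in WT proximal lung (adjusted p = 0.0015). From day 100 to day 120 it fell by 4.91 ± 0.26 in WT proximal (adjusted p = 0.00018), by 6.20 ± 0.37 in WT distal (adjusted p = 0.00036) and by 7.12 ± 0.49 in CF distal lung (adjusted p = 0.00099). In CF proximal lung that interval was not called, but it was called without the pair of libraries that stood apart, with 1 library left at day 120. Between day 65 and term its log2 fold change was -9.24 ± 0.30 in WT proximal, -8.07 ± 0.39 in WT distal, -10.32 ± 1.91 in CF proximal and -8.35 ± 0.51 in CF distal lung, all called. The CF proximal call was lost on leaving out either day 65 or either term library (adjusted p = 0.052 to 0.125, log2 fold change -11.25 to -9.77).

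COL2A1 is a marker of cartilage, and genes of a cartilage list were called in both directions. Of its 14 measured genes, COL2A1 included, 3 were called higher and 6 lower at term against day 65 among 13 tested in WT proximal lung, 3 and 6 of 14 in WT distal, 1 and 4 of 14 in CF proximal and 1 and 6 of 13 in CF distal lung. The shares of all genes called higher and lower were 20.6% and 17.7%, 19.5% and 18%, 5.78% and 5.83%, and 15.9% and 14.7% in the same order. The cartilage matrix genes MATN1 (0 to 3.71 CPM) and COMP (0.0826 to 3.08 CPM) were near 0 throughout, and ACAN, the cartilage proteoglycan, lay at 2.73 to 26.9 CPM with medians of 6.51 CPM at day 65 and 10.6 CPM at term. SOX9, a transcription factor of chondrocytes and of distal lung tips, fell from 89.9 to 134 CPM at day 65 to 6.27 to 20.4 CPM at term, and LECT1, which encodes chondromodulin, from 62.4 to 109 CPM to 0.880 to 1.88 CPM. MATN4, another matrix gene of the list, rose from 8.60 to 25 CPM at day 65 to 69.0 to 188 CPM at term. The fold changes of SOX9, LECT1 and MATN4 to term were called in all 4 courses, at -3.19 ± 0.28, -6.70 ± 0.38 and 2.76 ± 0.46 in WT proximal lung (adjusted p = 3.7e-05, 3.9e-06 and 0.0012). SOX5, a partner of SOX9, was called lower in all 4 courses, with medians of 48.5 CPM at day 65 and 10.7 CPM at term, and MIA (14.2 and 2.38 CPM) and SOX6 (7.51 and 3.31 CPM) in all but CF proximal lung. EPYC was called higher in both WT courses, ACAN in WT proximal and CHAD in WT distal lung. The amount of cartilage in each sample was not measured, and the part of it in these levels was not tested.

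**Figure D2:**
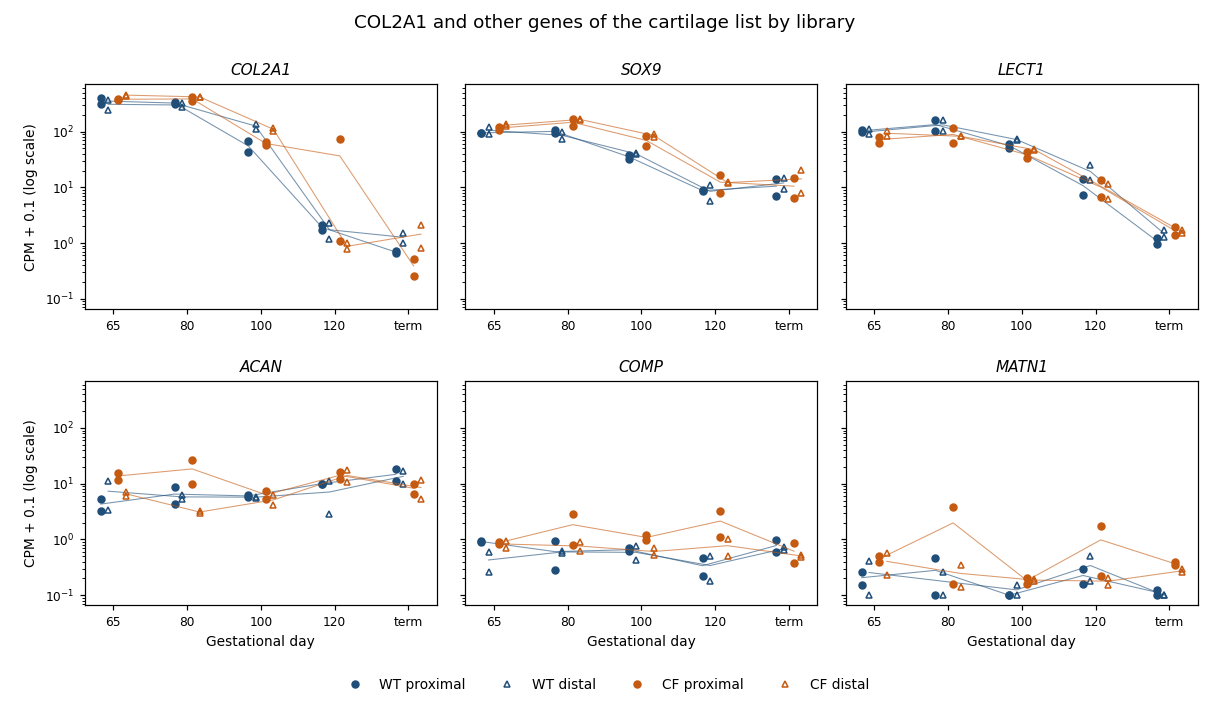
COL2A1 and 5 other genes of the cartilage list in all 40 libraries (CPM + 0.1, 1 shared log axis) by gestational day, with symbols as for the collagen genes by library. SOX9 and LECT1 are lower at term, like COL2A1, ACAN stays between 2.73 and 26.9 CPM, and COMP and MATN1 stay at or below 3.71 CPM.

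COL9A3 and COL11A1, partners of type II in cartilage fibrils, fell as well. COL9A3 went from 50.2 and 27.6 CPM at day 65 to 0.558 and 0.703 CPM at term in WT proximal lung and from 239 and 299.6 to 4.10 and 2.64 CPM in CF proximal lung. Its fall to term was 5.95 ± 0.55 (adjusted p = 5.1e-05), 5.44 ± 0.37 (1.8e-05), 6.31 ± 0.68 (0.0017) and 5.61 ± 0.67 (0.00044) in WT proximal, WT distal, CF proximal and CF distal lung. COL11A1 went from 67.5 and 51.6 to 2.28 and 2.43 CPM in WT proximal lung, a fall of 4.67 ± 0.21 (adjusted p = 1.4e-06). The COL9A1 gene, read as LOC101102992, fell by 6.65 ± 0.54 in the same course (adjusted p = 2.5e-05).

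COL9A2 took another course and differed between the genotypes at the end. In WT proximal lung it was at 3.68 and 2.94 CPM at day 65, 0.117 and 0.442 CPM at day 120 and 2.94 and 3.81 CPM at term, a rise of 3.57 ± 0.64 in the last interval (adjusted p = 0.0044), and in WT distal lung the rise was 2.67 ± 0.55 (adjusted p = 0.0092), a call lost without day 120 replicate 1 (2.20, adjusted p = 0.0649). CF proximal lung was at 8.69 and 5.21 CPM at day 65 and 0.184 and 0.0662 CPM at term, and CF distal lung at 7.85 and 6.56 and then 0.422 and 0.0223 CPM. From day 65 to term this was a fall of 5.75 ± 1.25 (adjusted p = 0.024) and 4.97 ± 0.90 (adjusted p = 0.0036) in the 2 CF courses, with log2 fold changes of 0.02 ± 0.54 and 0.24 ± 0.50 in WT proximal and distal lung, which were not called. The CF proximal call was lost on leaving out any of 4 libraries (adjusted p up to 0.172). COL10A1, the hypertrophic cartilage collagen, did not exceed 1.86 CPM in any library.

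Type IV chains split. COL4A3 was the member with the largest rise: in WT proximal lung it was at 1.42 and 3.93 CPM at day 65, 3.66 and 3.92 CPM at day 80, 22.9 and 19.9 CPM at day 100, 141 and 87.2 CPM at day 120 and 625 and 557 CPM at term. In WT distal lung the term libraries reached 736 and 379 CPM, in CF proximal lung 149 and 108 CPM and in CF distal lung 192 and 94.1 CPM. All term libraries lay above every day 65 library (1.30 to 3.93 CPM). The rise to term was 7.78 ± 0.45 (adjusted p = 4.7e-06), 7.78 ± 0.51 (1.5e-05), 6.29 ± 0.87 (0.0045) and 6.77 ± 0.67 (0.00016) in WT proximal, WT distal, CF proximal and CF distal lung. The CF proximal call was lost without either day 65 library (adjusted p up to 0.0587). In both WT regions each of the last 3 intervals was called, and the WT calls of the intervals before day 120 were lost in some refits. No single interval was called in CF. Levels in CF distal lung were 1.30 and 1.37, 13.1 and 4.96, 28.7 and 13.9, and 108 and 74.6 CPM from day 65 to day 120. The genotypes were not tested against each other by interval, and the difference in change of COL4A3 from day 65 to term was not called in either region.

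COL4A4, its head-to-head neighbour and partner chain, went from 12.4 and 17.1 CPM at day 65 to 193 and 126 CPM at day 120 and 629 and 495 CPM at term in WT proximal lung. CF proximal lung was at 11.2 and 13.3, 210.1 and 68.3, and 107 and 77.1 CPM at the same times. The CF proximal call from day 65 to term was lost on leaving out any of 6 libraries, with values from 2.66 to 3.14 over all refits. From day 120 to term COL4A4 rose by 1.81 ± 0.23 (adjusted p = 0.001) in WT proximal and 2.05 ± 0.33 (adjusted p = 0.0037) in WT distal lung, with values of -0.63 ± 0.62 and -0.66 ± 0.52 in CF proximal and distal lung, which were not called. COL4A5 and COL4A6 had their highest mean at day 120 in WT proximal lung (418 and 462 CPM for COL4A5) and fell there by 1.02 ± 0.19 and 1.31 ± 0.22 into term (adjusted p = 0.0054 and 0.0033). COL4A1 was at 1154 and 1223 CPM at day 65 and 2325 and 1289 CPM at term in WT proximal lung, and was called from day 65 to term in WT distal lung alone among the 4 courses (0.93 ± 0.27, adjusted p = 0.022). The change of COL4A1 differed between CF and WT by -0.75 ± 0.37 in distal lung, which was not called (adjusted p = 0.236).

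The abundant interstitial collagens COL1A1, COL1A2 and COL3A1 were lower at term than at day 65 in both WT regions, and COL1A1 and COL1A2 also in CF distal lung. COL1A1 in WT proximal lung lay between 1540 and 2258 CPM from day 65 to day 120 and at 955 and 540.2 CPM at term, COL1A2 between 2124 and 3138 CPM and then at 991 and 578 CPM, and COL3A1 between 3526 and 7447 CPM and then at 3082 and 1978 CPM. The term libraries lay below all earlier ones for each of these genes in that course. In WT proximal lung the falls from day 120 to term were 1.49 ± 0.24 (adjusted p = 0.0029), 1.61 ± 0.25 (0.0022) and 1.38 ± 0.24 (0.0041). In the CF libraries of both regions, COL1A1 lay at 1452 to 8187 CPM before term and 498 to 1501 CPM at term, and COL3A1 at 3808 to 8855 and 1368 to 4742 CPM, so the ranges overlapped. COL1A2 lay at 2244 to 6993 and 386 to 1744 CPM, without overlap. COL3A1 was called in neither CF course from day 65 to term (-0.83 ± 0.59 and -0.70 ± 0.46 in proximal and distal lung). Among the 8 fibrillar genes, 6 were called lower and 1 higher at term against day 65 in WT proximal lung, 5 and 1 in WT distal, 1 and 0 in CF proximal and 5 and 0 in CF distal lung. Over all genes, 17.7%, 18%, 5.83% and 14.7% were called lower and 20.6%, 19.5%, 5.78% and 15.9% higher in these courses. In CF proximal lung 5 fibrillar genes were called lower and 0 higher without the pair of libraries that stood apart (COL1A1, COL1A2, COL5A1, COL5A2 and COL27A1), where 22.8% of all genes were called in either direction. The 1 called higher was COL5A3, from 1.37 and 2.09 CPM at day 65 to 10.2 and 7.11 CPM at term in WT proximal lung (2.31 ± 0.37, adjusted p = 0.00097). In WT distal lung its value was 1.94 ± 0.50 (adjusted p = 0.014), a call lost without day 65 replicate 2 (1.43, adjusted p = 0.0613), without term replicate 1 (1.44, adjusted p = 0.0576) and with all 40 libraries in 1 fit (adjusted p = 0.0784).

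Of the beaded filament genes, COL6A1 and COL6A2 were called in no course between day 65 and term. COL6A3 fell in WT proximal (1.21 ± 0.21, adjusted p = 0.0015) and WT distal lung (1.07 ± 0.20, adjusted p = 0.0028), with log2 fold changes of 0.07 ± 0.42 and 0.14 ± 0.25 in CF proximal and distal lung, which were not called. COL6A5 rose in all 4 courses, from 11.4 and 9.81 CPM to 75.7 and 55.4 CPM in WT proximal lung (2.62 ± 0.47, adjusted p = 0.0018). COL6A6 fell in WT proximal lung from 4.16 and 6.65 CPM to 0.192 and 0.661 CPM (3.66 ± 0.76, adjusted p = 0.0039) and in WT distal lung from 2.59 and 6.78 CPM to 1.36 and 1.30 CPM (1.84 ± 0.63, adjusted p = 0.043). Its log2 fold changes in CF proximal and distal lung, -5.60 ± 1.93 and -2.0 ± 1.49, were not called, but the proximal one was without the pair of libraries that stood apart (adjusted p = 0.0054). The CF proximal call of COL6A5 was lost on leaving out any of 8 of the 10 libraries, with adjusted p up to 0.261. The CF distal call of COL6A5 (2.09 ± 0.50, adjusted p = 0.013) was lost without day 65 replicate 1 (1.82, adjusted p = 0.0847) or term replicate 1 (1.43, adjusted p = 0.0655). The WT proximal call of COL6A6 was lost with all 40 libraries in 1 fit (adjusted p = 0.0768).

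COL8A2, a network collagen of vessel and corneal matrices, and the multiplexin COL15A1 had their highest mean at day 120 in all 4 courses and fell into term in WT and CF distal lung. COL8A2 was at 8.94 and 9.37 CPM at day 65, 40.4 and 32.1 CPM at day 120 and 1.40 and 2.00 CPM at term in WT proximal lung, a fall of 4.41 ± 0.27 in the last interval (adjusted p = 5.3e-05). In CF distal lung it was at 15 and 10.5, 66.1 and 75.1, and 15 and 15.9 CPM, a last fall of 2.20 ± 0.23 (adjusted p = 0.0011). COL15A1 went from 191 and 187 CPM through 609.8 and 655 CPM to 162 and 133 CPM in WT proximal lung, a last fall of 2.10 ± 0.15 (adjusted p = 7.9e-05), and in CF distal lung from 210.3 and 208 through 819.6 and 769 to 381 and 352 CPM, a last fall of 1.12 ± 0.21 (adjusted p = 0.0092). COL7A1, the anchoring fibril collagen, went in WT proximal lung from 30.4 and 35.5 to 5.14 and 6.50 CPM (a fall of 2.51 ± 0.23, adjusted p = 4.4e-05). COL28A1 rose between day 80 and day 100, from 1.70 and 3.5 to 23.4 and 21.5 CPM in WT proximal lung (3.08 ± 0.48, adjusted p = 0.015), and COL23A1, a transmembrane collagen, rose into WT term, from 3.35 and 4.36 to 18.6 and 19.2 CPM (2.29 ± 0.53, adjusted p = 0.013). These calls of COL28A1 and COL23A1 were lost on leaving out any of 4 and any of 3 libraries (adjusted p up to 0.112 and 0.0866).

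By interval, no member was called between day 65 and day 80 in any course by edgeR (all genes, 0.011%, 0.0164%, 0% and 0%). Between 2 and 11 members had an unadjusted p under 0.05 there, and DESeq2 called 1, 0, 0 and 5 in WT proximal, WT distal, CF proximal and CF distal lung. Over all genes the unadjusted shares were 5.5%, 3.99%, 1.12% and 17.4%, and those of DESeq2 0.726%, 0.361%, 0.147% and 1.61%. From day 80 to day 100, 3 members were called higher and 1 lower in WT proximal lung (all genes, 1.22% and 0.649%), and 3 and 1 in WT distal lung (0.75% and 0.246%). From day 100 to day 120 the counts were 2 higher and 3 lower in WT proximal (1.31% and 1.25%) and 3 and 2 in WT distal lung (1.32% and 1.12%). From day 120 to term, 24 were called in WT proximal (5 higher, 19 lower; 11.3% and 8.78% of all genes) and 25 in WT distal lung (5 and 20; 11.8% and 10.5%). CF distal lung had 0 calls from day 80 to day 100 (0% of all genes), with 10 members at an unadjusted p under 0.05 (4.04% of all genes) and 3 called by DESeq2 (0.687%). It had 0 higher and 1 lower from day 100 to day 120 (0.528% and 0.4%) and 1 higher and 11 lower into term (11.5% and 11.4%). CF proximal lung had 0 calls in all 4 intervals by edgeR (all genes, 0%, 0%, 0.0203% and 0.356%). Unadjusted, 2, 14, 4 and 12 members had a p under 0.05 there (all genes, 1.12%, 3.92%, 7.69% and 15.1%) and DESeq2 called 0, 5, 0 and 9 (0.147%, 0.721%, 2.42% and 7.09%). In edgeR there were 7 calls without the pair of libraries that stood apart (0, 0, 1 and 6 by interval, beside 0%, 0%, 0.0448% and 0.832% of all genes). Of the WT calls before day 120, the COL2A1 fall from day 100 to day 120 was kept in all refits in both regions, as it was in CF distal lung. The others were lost in at least 1, and the COL2A1 fall from day 80 to day 100 in WT proximal lung was lost where all 40 libraries were fitted together (adjusted p = 0.229). At an adjusted p of 0.001, COL2A1 was the 1 member called from day 100 to day 120 in WT proximal, WT distal and CF distal lung (all genes, 0.077%, 0.0274% and 0.0103%). Into term, 3 members were called in each WT region at that limit (2.14% and 1.15%).

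**Figure D3:**
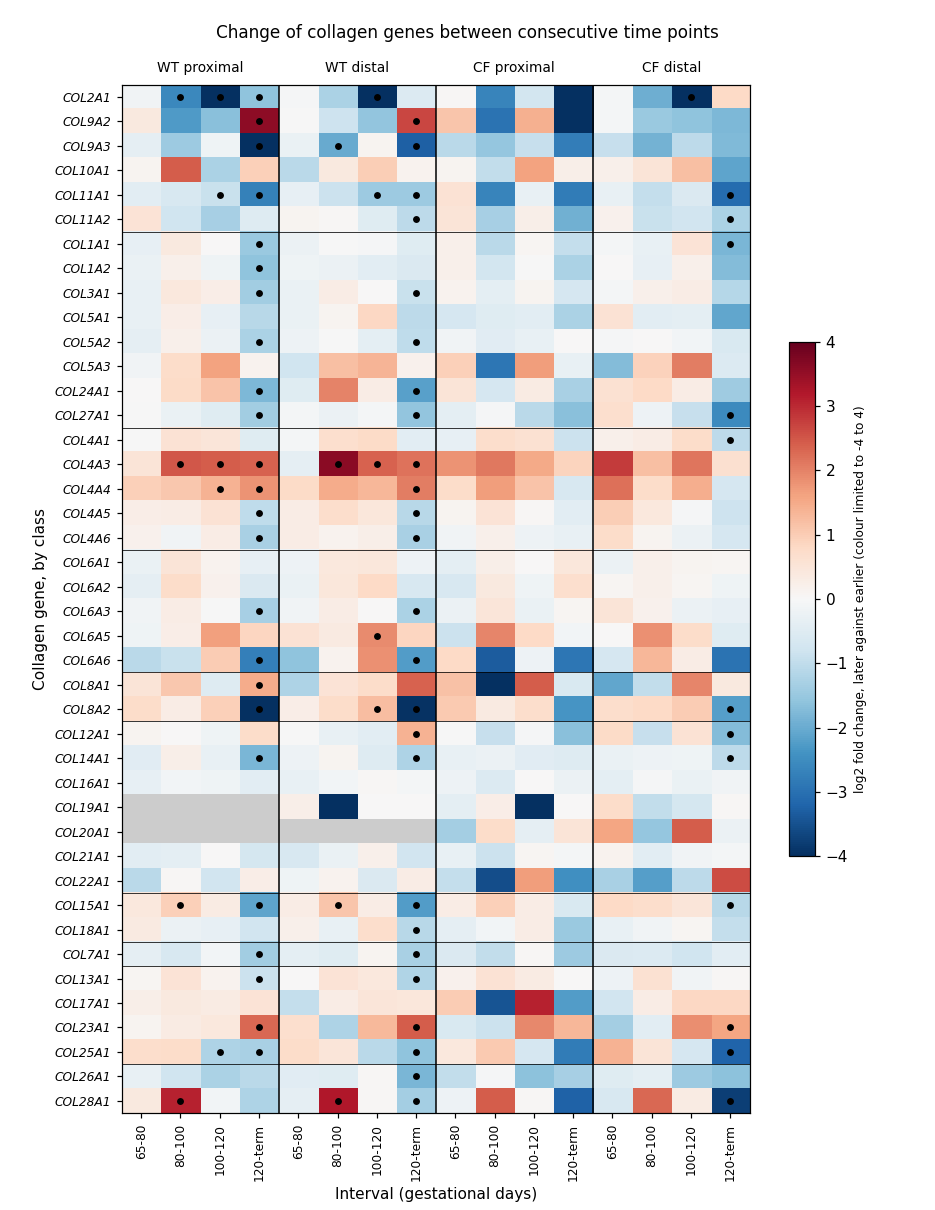
Fitted log2 fold change of each collagen gene (rows, by class) in each interval (columns, 4 courses of 4 intervals), red for higher and blue for lower at the later time, with a dot where the gene was called; grey cells were not tested, and COL19A1 and COL20A1 rest on less than 0.5 CPM. The dots gather in the WT columns from day 120 to term, where 24 and 25 members were called, and are absent from the CF proximal columns.

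The genes that process or bind collagen are given from day 65 to term beside the shares of all genes called higher and lower, which were 20.6% and 17.7% in WT proximal and 19.5% and 18% in WT distal lung. Of 18 hydroxylases and chaperones, 3 were called higher and 3 lower in WT proximal lung, and 4 and 2 in WT distal lung, with FKBP10, a collagen chaperone, lower (-1.66 ± 0.25 in proximal lung, adjusted p = 0.00062) and P3H2, a prolyl 3-hydroxylase, higher (1.69 ± 0.29, adjusted p = 0.0015). Of 8 procollagen proteases, 1 was higher and 2 lower in WT proximal lung, with ADAMTS2, which removes the amino propeptide of fibrillar procollagens, higher by 2.02 ± 0.13 (adjusted p = 7.6e-06). Of 5 lysyl oxidases, 2 rose and 2 fell there. LOXL4, a cross-linking oxidase, was called higher in all 4 courses (5.95 ± 0.85 in WT proximal, 7.06 ± 0.53 in WT distal, 2.46 ± 0.60 in CF proximal and 2.95 ± 0.66 in CF distal lung). Of 17 laminins and other basement membrane partners, 5 and 5 were called in WT proximal lung, with LAMA1 lower (-4.51 ± 0.60, adjusted p = 0.00034) and LAMB3 higher (3.79 ± 0.33, adjusted p = 3.5e-05). Of 8 fibril-binding proteoglycans 1 rose and 1 fell, of 9 tested collagen receptors 1 and 3, and of 5 tested collagen-cutting proteases 1 and 2.

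Cell type markers moved with time too. From day 65 to term in WT proximal lung, 7 of 9 epithelial, 6 of 7 smooth muscle and 5 of 5 macrophage genes were called higher, 4 of 7 fibroblast genes lower and 2 higher, and 10 of 10 cell cycle genes lower. Summed fibroblast genes lay at 842 to 1421 CPM in WT before term and 618 to 882 CPM at term, while in CF they lay at 750 to 1069 CPM and then 1146 to 1549 CPM. Summed cell cycle genes lay at 215 to 988 CPM in WT before term and 146 to 290 CPM at term, and at 183 to 824 and 37.0 to 55.5 CPM in CF. The part of these shifts in the collagen changes was not tested.

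The second question was whether collagen genes differ between proximal and distal lung. None of the 42 members was called in the mean over the 10 genotype-by-time conditions, where edgeR called 3 of 20779 genes (0.0144%), and 0 at any single time or in the change of the difference from day 65 to term (0% of all genes in each). At an unadjusted p under 0.05 there were 2 members in the mean (1.79% of all genes) and between 0 and 4 at single times (1.43% to 2.39%). DESeq2 called 1 (COL2A1 at day 120, 2.87, adjusted p = 0.0047; 0.00963% of all genes), a value that rests on the CF proximal library at 72.1 CPM. Fitted mean differences ranged from -1.55 to 0.77 with a median of 0.01. The fitted difference was above 0, that is higher in proximal lung, in 33, 26, 23, 17 and 13 of 42 members at days 65, 80, 100 and 120 and at term, with medians of 0.14, 0.14, 0.02, -0.12 and -0.09. The change of the difference from day 65 to term was below 0 in 36 of 42 members, with a median of -0.36 beside 0.02 over all genes, and 1 member had an unadjusted p under 0.05 (1.29% of all genes). The change and the single times share their libraries. Marker genes shifted in the same contrast too, with none called. The change was below 0 in 4 of 4 basal cell genes (median -1.71), 4 of 5 Schwann cell genes (-2.35) and 11 of 14 cartilage genes (-0.10, COL2A1 included). It was above 0 in 5 of 5 erythroid genes (0.50) and 4 of 5 macrophage genes (0.57). The part of these shifts was not tested. In the 20 pairs of libraries with the same genotype, time and replicate number, the number with the proximal value above the distal ranged over the members from 4 (COL4A5, median log2 difference -0.18) to 16 (COL5A2, 0.10), which were named after their values were seen. Leaving out replicate 1 of CF proximal day 120 or of CF proximal day 80, which leaves only the library that stood apart at that time, gave calls over the single times. No share of all genes was set beside these calls. Leaving out both libraries that stood apart gave 0.

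**Figure D4:**
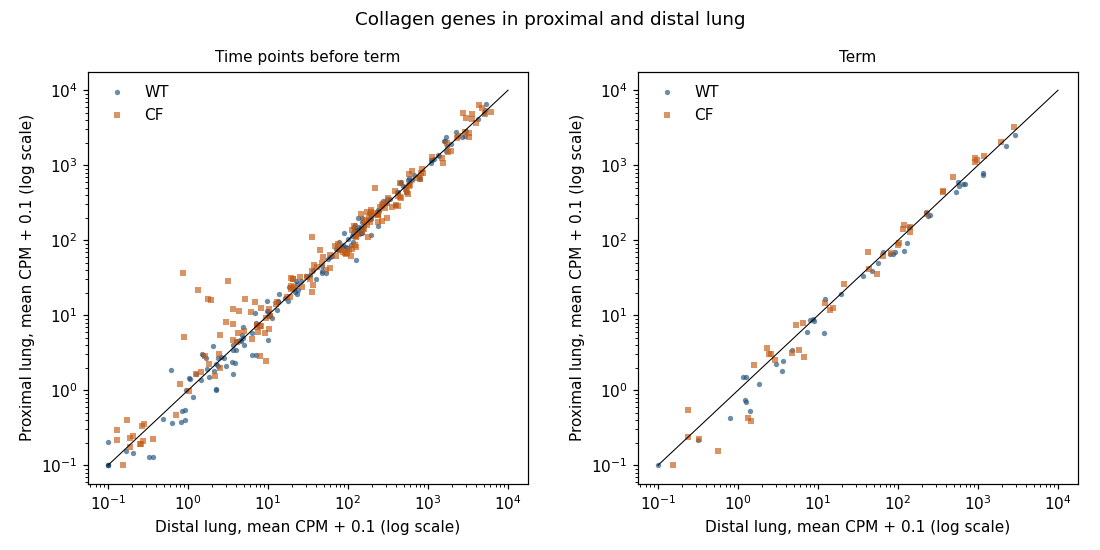
Mean CPM + 0.1 of each collagen gene in proximal (vertical) against distal lung (horizontal), both log axes, 1 point per gene and time point, before term (left) and at term (right), for WT (circles) and CF (squares), with the line of equality. The points follow the line at high levels and scatter more at low ones; the CF points far above it before term include COL2A1 at day 120, which is the mean of 0.984 and 72.1 CPM.

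The third question was how CF differs from WT lung. Before term, more members were higher in CF than lower. In the mean over days 65, 80, 100 and 120, 10 of 42 were called higher and 1 lower in proximal lung (all genes, 10.9% and 3.21%), and 9 and 0 in distal lung (11.5% and 6.48%). The fitted difference was above 0 in 32 and 33 of 42 members, with medians of 0.46 and 0.44 beside 0.07 and 0.03 over all genes. The proximal mean without the pair of libraries that stood apart had 10 members called higher and 0 lower (15% of all genes). At single times the proximal counts were 0, 0, 0 and 1 at days 65, 80, 100 and 120 (all genes 0.167%, 0.0885%, 0.383% and 1.35%), with 11, 14, 6 and 6 members at an unadjusted p under 0.05 (12.4%, 10.6%, 13% and 17.1% of all genes). DESeq2 called 6, 5, 2 and 3 (3.79%, 2.74%, 4.18% and 7.72%). Without the pair they were 4 (COL5A3, COL7A1, COL8A1 and COL9A3), 0, 1 (COL9A3) and 0 (1.41%, 0%, 2.16% and 1.18%), with 1 CF library left at day 80 and 1 at day 120. The day 120 call with all libraries was that of COL11A2, which was also lost on leaving out any of 11 single libraries (adjusted p up to 0.287). In distal lung they were 3, 5, 3 and 0 (5.05%, 5.75%, 5.07% and 4.22%), with 5 members at an unadjusted p under 0.05 (20.1% of all genes) and 0 by DESeq2 (9.08%) at day 120. Of these distal calls, 1 of 3 at day 65, 1 of 5 at day 80 and 0 of 3 at day 100 were kept whichever single library was left out, with adjusted p up to 0.481 for COL9A3 at day 80. Depth in CF libraries before term exceeded that of all WT libraries of the same times. Its part in these differences was tested only by thinning all libraries to the smallest total. That gave 11 and 8 members called in the mean before term, with no share of all genes set beside them. At an adjusted p of 0.001, 2 and 3 were called in that mean (2.5% and 6.86% of all genes), which were COL9A3 and COL11A2 in both regions and COL7A1 in distal lung.

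COL9A3, COL11A2 and COL7A1 were called in CF before term in both regions. COL9A3 lay at 66.7 to 362 CPM in the 8 CF libraries of days 65 and 80 and at 26.9 to 62.5 CPM in the 8 WT libraries, and its mean difference was 1.98 ± 0.28 in proximal (adjusted p = 0.00045) and 1.85 ± 0.25 in distal lung (adjusted p = 8.9e-05). COL11A2, a chain of type XI, was at 16.9 and 17.7 CPM in CF distal lung at day 65 and at 4.33 and 4.39 CPM in WT; its mean difference was 1.46 ± 0.14 in distal (adjusted p = 5.7e-06) and 1.96 ± 0.27 in proximal lung (adjusted p = 0.00042). COL7A1 was at 63.6 to 91.6 CPM in the 4 CF and 28.5 to 35.5 CPM in the 4 WT libraries of day 65, and its mean difference was 1.13 ± 0.20 in proximal (adjusted p = 0.0019) and 0.89 ± 0.11 in distal lung (adjusted p = 2.7e-05). The groups did not overlap at these times for COL9A3, COL11A2 and COL7A1. COL24A1 and COL28A1 were also called higher in both regions. The distal call of COL28A1 (0.83 ± 0.25, adjusted p = 0.022) was lost on leaving out any of 6 libraries (adjusted p up to 0.0847, values from 0.50 to 0.99). COL10A1 was the 1 member called lower, in proximal lung (-1.36 ± 0.43, adjusted p = 0.038), and lost the call without the pair of libraries that stood apart (adjusted p = 0.0827) and without each of 12 single libraries (adjusted p up to 0.129).

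At term the direction split by gene. In proximal lung 5 members were called higher and 3 lower in CF (all genes, 2.6% and 3.48%) and in distal lung 6 and 6 (7.16% and 7.23%). Called higher in both regions were COL8A2, COL15A1, COL9A3 and COL6A3, and called lower in both were COL4A3, COL4A4 and COL9A2. COL8A2 in proximal and COL8A2 and COL15A1 in distal lung were called at an adjusted p of 0.001 (all genes, 0.339% and 1.25%). COL8A2 was at 11.1 and 13.4 CPM in CF and 1.40 and 2.00 CPM in WT proximal lung (2.85 ± 0.37, adjusted p = 0.00071), and at 15 and 15.9 against 3.21 and 3.75 CPM in distal lung (2.17 ± 0.22, adjusted p = 5.8e-05). COL15A1 was at 451 and 422 CPM against 162 and 133 CPM in proximal lung (1.56 ± 0.29, adjusted p = 0.0071) and at 381 and 352 against 148 and 126 CPM in distal lung (1.45 ± 0.19, adjusted p = 0.00032). COL6A3 was at 1277 and 1369 against 626 and 418 CPM in proximal lung (1.34 ± 0.34, adjusted p = 0.032) and higher by 1.08 ± 0.23 in distal lung (adjusted p = 0.0068). COL9A3 was at 4.10 and 2.64 against 0.558 and 0.703 CPM in proximal (2.41 ± 0.59, adjusted p = 0.028) and at 7.53 and 3.86 against 1.11 and 1.12 CPM in distal lung (2.38 ± 0.53, adjusted p = 0.0092). In each of these the 2 CF libraries lay above the 2 WT libraries. The proximal COL15A1 call was lost without WT term replicate 2 (1.43, adjusted p = 0.0931), the distal COL6A3 call without WT term replicate 2 (0.84, adjusted p = 0.0567) and the proximal COL6A3 call on leaving out any of 4 libraries (adjusted p up to 0.278). The calls of COL9A3 were lost on leaving out any of 4 libraries in proximal (adjusted p up to 0.186) and any of 3 in distal lung (adjusted p up to 0.0710).

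COL4A3 and COL4A4 were the lower ones. COL4A3 at term was at 149 and 108 CPM in CF and 625 and 557 CPM in WT proximal lung (-2.21 ± 0.61, adjusted p = 0.049), and at 192 and 94.1 against 736 and 379 CPM in distal lung (-1.93 ± 0.51, adjusted p = 0.022). COL4A4 was at 107 and 77.1 against 629 and 495 CPM in proximal lung (-2.61 ± 0.52, adjusted p = 0.011) and at 137 and 66.2 against 859 and 452 CPM in distal lung (-2.66 ± 0.50, adjusted p = 0.0034). The CF and WT term libraries did not overlap for COL4A3 or COL4A4. The proximal COL4A3 call was close to the limit and was lost when any of 14 of the 20 libraries was left out (adjusted p up to 0.276, values from -2.47 to -2.01) and with another normalization (adjusted p = 0.0503). The distal COL4A3 call was lost without WT distal term replicate 1 (-1.41, adjusted p = 0.142) or CF distal term replicate 2 (-1.54, adjusted p = 0.171), and the proximal COL4A4 call without WT proximal term replicate 1 (-2.43, adjusted p = 0.0555) or CF proximal term replicate 2 (-2.42, adjusted p = 0.109). COL4A4 in distal lung was kept in every refit.

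COL9A2 had the lowest fitted difference at term in both regions, at 0.184 and 0.0662 against 2.94 and 3.81 CPM in proximal (-4.72 ± 1.04, adjusted p = 0.017) and 0.422 and 0.0223 against 3.35 and 5.94 CPM in distal lung (-4.34 ± 0.80, adjusted p = 0.003). CF distal term replicate 2 held 2 counts of COL9A2 and replicate 1 held 40. The distal difference was -7.62 without replicate 1 and -3.46 without replicate 2, both called. The proximal call was lost without WT term replicate 2 (-4.52) or CF term replicate 2 (-4.20), with adjusted p up to 0.150. COL12A1, a FACIT collagen, was at 71.7 and 36.8 CPM in CF and 335 and 135 CPM in WT distal lung (-2.08 ± 0.44, adjusted p = 0.0068), and lost the call without WT term replicate 1 (-1.31, adjusted p = 0.0834) or CF term replicate 2 (-1.71, adjusted p = 0.0777). COL28A1 and COL11A1 were also called lower there, COL28A1 with a call lost on leaving out either of 2 libraries (adjusted p up to 0.184). Of the members with the largest changes at term, 1 of 8 in proximal lung (COL8A2) and 4 of 10 in distal lung kept their call whichever single library was left out. Without the pair of libraries that stood apart, which were not term libraries, 9 members were called higher and 5 lower at term in proximal lung (12.4% of all genes).

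**Figure D5:**
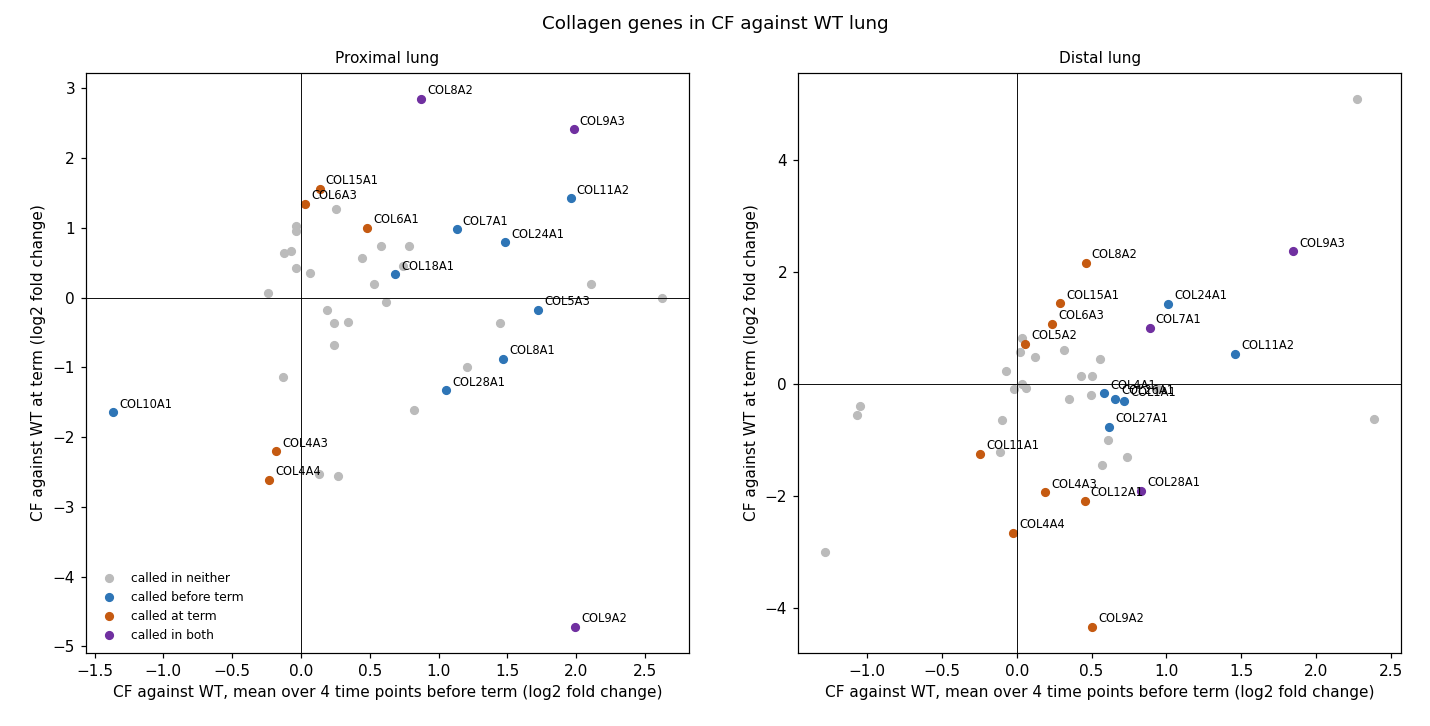
CF minus WT log2 fold change of each collagen gene, as the mean of days 65 to 120 (horizontal) and at term (vertical), in proximal (left) and distal lung (right), coloured by whether it was called before term, at term, in both or in neither. COL9A3 lies upper right in both panels, COL8A2 and COL15A1 lie high, and COL4A3, COL4A4 and COL9A2 lie low at term.

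Markers of other cell types were called between the genotypes too, beside the all-gene shares at term of 2.6% higher and 3.48% lower in proximal and 7.16% and 7.23% in distal lung. At term, 5 of 5 macrophage genes were called lower in CF in proximal lung and 4 of 5 in distal lung, with summed levels of 73.5 to 111 CPM in CF and 382 to 826 CPM in WT. Smooth muscle genes were called lower in 3 of 7 and 5 of 7 (296 to 585 against 636 to 1029 CPM), cell cycle genes in 10 of 10 and 9 of 10, and fibroblast genes higher in 4 of 7 in each region (1146 to 1549 against 618 to 882 CPM). Before term, smooth muscle genes were called higher in CF in 6 of 7 and 5 of 7 (all genes, 10.9% and 11.5%), with summed levels of 660.3 to 1598 CPM in CF and 307.0 to 830 CPM in WT. Summed epithelial genes lay at 859 to 1872 CPM in CF and 1773 to 2047 CPM in WT at term, and endothelial genes at 1709 to 2101 and 1223 to 1888 CPM. The part of these shifts in the collagen differences was not tested.

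Enzymes and partners of collagens were compared between the genotypes in the same fits. Over all genes, 10.9% were called higher and 3.21% lower in CF before term in proximal lung and 11.5% and 6.48% in distal lung, and at term 2.6% and 3.48% in proximal and 7.16% and 7.23% in distal lung. Before term, BMP1, which removes the carboxy propeptide of procollagens, was higher in CF by 1.26 ± 0.20 in proximal (adjusted p = 0.00096) and 1.39 ± 0.19 in distal lung (adjusted p = 8.0e-05), as were P4HA3, a subunit of prolyl 4-hydroxylase (1.40 ± 0.20 and 1.07 ± 0.17), and ITGA10, a chondrocyte integrin that binds type II collagen (1.41 ± 0.15 and 1.52 ± 0.10). Of 17 basement membrane partners, 5 were called higher and 0 lower before term in proximal lung and 7 and 1 in distal lung, with LAMC3 at 1.39 ± 0.22 and 1.33 ± 0.20. At term, P4HA1, the catalytic chain of prolyl 4-hydroxylase, was higher in CF by 2.16 ± 0.53 in proximal and 2.16 ± 0.49 in distal lung, and LOXL4 had log2 differences of -2.74 ± 0.73 and -3.66 ± 0.58. Of 18 hydroxylases and chaperones, 2 were called higher and 1 lower in proximal lung at term, and 3 and 3 in distal lung. DCN, the small proteoglycan decorin, was higher by 1.46 ± 0.39 and 1.10 ± 0.20.

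Whether the change from day 65 to term differed between the genotypes was tested as a difference of differences. In distal lung 3 members were called with a more positive and 3 with a more negative change in CF (all genes, 2.32% and 4.2%). Those with a more positive change were COL8A2 (1.97 ± 0.30, adjusted p = 0.0025), COL15A1 (1.34 ± 0.26, adjusted p = 0.0098) and COL6A3 (1.18 ± 0.32, adjusted p = 0.044). Those with a more negative change were COL9A2 (-5.25 ± 1.04, adjusted p = 0.0099, from -8.48 to -4.32 on leaving out CF term replicate 1 or 2), COL28A1 (-3.38 ± 0.73, adjusted p = 0.015) and COL11A2 (-1.45 ± 0.40, adjusted p = 0.046). The calls of COL11A2, COL6A3 and COL28A1 were lost on leaving out any of 17, 16 and 3 of the 20 libraries (adjusted p up to 0.147, 0.150 and 0.0706). At an adjusted p of 0.001, 0 were called there (0.124% of all genes). In proximal lung 0 were called by edgeR (1.05% of all genes), with 11 members at an unadjusted p under 0.05 (15.3%) and 7 called by DESeq2 (6.34%). The smallest adjusted p there was that of COL28A1, at 0.05003. Without the pair of libraries that stood apart, 9 were called there (3 more positive, 6 more negative, beside 5.83% of all genes). The proximal values of COL8A2 (2.15 ± 0.49), COL15A1 (1.28 ± 0.40), COL6A3 (1.26 ± 0.47), COL9A2 (-5.79 ± 1.34) and COL28A1 (-3.16 ± 0.70) were not called with all libraries. Without the pair, which holds no day 65 or term library, these 5 were called (adjusted p = 0.0035 to 0.046), with COL4A4, COL5A3, COL8A1 and COL12A1.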

How the data were processed

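Per the labels, 40 libraries of lung were made by oligo-dT priming and sequenced as paired ends. The authors aligned reads to the Oar_v4.0 sheep genome with STAR (version 2.6 in the submitters' processing notes, another in the methods) and counted them over gene exons with featureCounts 1.6.3. The deposited values are raw counts per gene, not normalized, with replicates kept apart; a combined table repeating the CF columns was not used. The members and gene lists were chosen with earlier results of these data known. Library totals ran from 24670355 to 126749480 counts, so counting error matters mainly for members near 0.

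Counts were tested in edgeR 4.0.16 (R 4.3.3): filterByExpr (count minimum 10, total minimum 15), TMM scaling, glmQLFit and glmQLFTest, two-sided, with Benjamini-Hochberg adjustment over all genes. Each time course (10 libraries) was fitted alone, CF against WT within each region (20 libraries) and proximal against distal over 40 libraries. A call needed an adjusted p of at most 0.05 and a log2 fold change of 0.58; the study's stricter limit of 0.001 was an alternative. CPM used TMM-scaled totals and RPKM the exon length given in the files. The largest changes named were up to 5 called members in each direction per comparison. Animals are shared between regions by the labels, and deviations of the paired libraries correlated at -0.09 to 0.63. On simulated counts, the test called 34.7% (WT proximal) and 19% (CF distal) of changes of log2 size 1 for term against day 65. For CF against WT distal lung at term it called 19.8%. At log2 size 2 these shares were 74.5%, 61.9% and 60.6%. A gene that was not called may therefore still have changed. Alternatives were DESeq2 1.42.0, RLE scaling, no filter, the bias-adjusted fit, replicate blocks, thinned libraries, a removed length trend, the 2 WT day 100 libraries summed, all libraries in 1 fit, and each library left out. No sequences were printed because no genome or sequence table of this build was used here.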

Additional observations from a re-analysis of the deposited data

Results flagged for a closer look

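In distal lung the change from day 65 to term differed between CF and WT for 6 collagens, by the test of that difference itself in edgeR (Benjamini-Hochberg adjusted p of at most 0.05). The difference of changes, CF minus WT on the log2 scale, was 1.97 for COL8A2, 1.34 for COL15A1 and 1.18 for COL6A3, and -5.25 for COL9A2 (-8.48 to -4.32 with 1 library left out), -3.38 for COL28A1 and -1.45 for COL11A2. The proximal values were 2.15, 1.28, 1.26, -5.79, -3.16 and -0.48, of which none was called with all libraries. Without the pair of CF proximal libraries that stood apart, COL8A2, COL15A1, COL6A3, COL9A2 and COL28A1 were called in proximal lung too. COL8A2, COL15A1 and COL9A2 kept the distal call whichever single library was left out, whereas COL28A1 lost it on leaving out any of 3 of the 20 libraries, COL6A3 any of 16 and COL11A2 any of 17. COL6A3 and COL11A2 also lost it under 2 and 3 other settings, with adjusted p up to 0.150 and 0.179 over all refits.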

How the results depend on the processing

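Refits of single genes covered only the called members with the largest changes in each comparison, and none of these changed direction: 935 of 1002 values kept their call and 67 lost it, and with 1 library left out 1467 of 1770 kept it and 303 lost it. The causes were not tested. The counts below are given without the share of all genes called in the same refit. They do not tell a change in the members from a change in calls over all genes. At an adjusted p of 0.001 the counts over the intervals were 4 (WT proximal), 4 (WT distal) and 1 (CF distal) against 33, 34 and 13. Term against day 65 then gave 13, 12, 0 and 7 in WT proximal, WT distal, CF proximal and CF distal lung against 28, 26, 13 and 23. CF against WT gave 1 and 2 over the single times in proximal and distal lung (9 and 23), 2 and 3 in the mean before term (11 and 9) and 0 for the distal difference in change (6). DESeq2 gave 1 for region over the single times (0), 14 and 34 over the CF proximal and CF distal intervals (0 and 13), 22 for CF proximal term against day 65 (13), 27 for CF against WT proximal over the single times (9) and 7 for the proximal difference in change (0). All 40 libraries in 1 fit gave 19 over the WT proximal intervals (33), 12 over those of CF proximal (0), 27 for CF proximal term against day 65, 22 and 14 for CF against WT over the single times, and 5 for the proximal difference in change. No filter gave 1 and the bias-adjusted fit 1 over the CF proximal intervals, and 1 and 3 for the proximal difference in change, where thinning gave 1. Without the pair of CF proximal libraries, chosen after seeing the data, the counts were 7 over the CF proximal intervals, 28 for term against day 65, 19 for CF against WT proximal and 9 for its difference in change.

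With 1 library left out, counts ranged from 0 to 7 for region over the single times (highest without CF proximal day 120 replicate 1) and stayed at 0 for its mean and its change. Over the intervals they ranged from 27 to 39 in WT proximal, 18 to 49 in WT distal (lowest without day 120 replicate 1), 0 to 14 in CF proximal (highest without day 120 replicate 1) and 7 to 23 in CF distal lung (lowest without day 120 replicate 1, highest without term replicate 1). For term against day 65 they ranged from 26 to 28, 23 to 26, 2 to 23 and 14 to 23 in that order, lowest in CF distal lung without day 65 replicate 1. For CF against WT over the single times they ranged from 2 (without WT term replicate 2) to 28 (without CF day 120 replicate 1) in proximal and 16 to 29 in distal lung. In the mean before term they ranged from 7 (without CF day 65 replicate 1) to 13 in proximal and 5 (without CF day 65 replicate 1) to 12 in distal lung. For the difference in change they ranged from 0 to 6 (highest without CF day 120 replicate 1) in proximal and 3 (without WT day 65 replicate 2) to 12 (without CF term replicate 1) in distal lung. Only the libraries at each extreme are named.

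Replicate numbers did not pair the samples across times (correlations -0.40 to 0.62, 4 of 16 over 0.1) or genotypes (-0.09 to 0.24, 3 of 10). The number as a replicate block gave 21 over the CF distal intervals (13) and 1 for the proximal difference in change (0). The animal as a block gave 0 for all region counts. Depth limits members near 0 CPM, such as COL9A2 with 2 counts in CF distal term replicate 2.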
